A study of Mus musculus with 8 samples.

Results

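Inflammasomes are protein platforms on which macrophages activate inflammatory caspases, and pyroptosis is the lytic cell death that can follow. Expression of 10 genes of this pathway was examined in mouse bone marrow-derived macrophages, which are grown in culture from marrow precursors, with serine and glycine present or withheld. The genes were taken by symbol from a deposited table of 17492 genes, and each of the 10 symbols matched 1 row. They were the sensors Nlrp3, Nlrp1b, Nlrc4 and Aim2, the adaptor Pycard, the caspases Casp1, Casp4 and Casp8, the pore-forming protein Gsdmd and the cytokine Il18. Cells of C57BL/6 mice in medium lacking both amino acids (serine/glycine-free, 4 libraries, given by the labels as serine deficiency) were compared with cells in normal medium (control, 4 libraries, given as untreated). The labels used here state no priming or stimulation, no length of the withdrawal, no age of the mice, and nothing on whether the libraries came from different cultures or mice. Each p-value thus reflects the spread among these 8 libraries only, and that spread may be technical.

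A sensor that detects a microbial or damage signal recruits the adaptor ASC, the product of Pycard, through pyrin or CARD domains. ASC polymerizes and gathers pro-caspase-1, which then cleaves pro-IL-1β, pro-IL-18 and gasdermin D, and the freed gasdermin fragment opens pores in the plasma membrane. In resting macrophages Nlrp3 and the IL-1β gene are kept low until an inflammatory signal primes them, while ASC, caspase-1 and gasdermin D are made constitutively.

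Without serine and glycine, the adaptor transcript Pycard fell by 29.4% (95% interval of the change -32.8% to -25.9%). None of the other 9 genes passed the test, and their fitted changes lay between -0.073 and 0.056 on the log2 scale. Of the 10 genes tested, 0 rose, 1 fell and 9 did not pass an adjusted p of 0.05 (edgeR quasi-likelihood test, Benjamini-Hochberg over all 11700 genes tested). Of all genes tested, 33.2% passed, 15.9% higher and 17.3% lower. At an unadjusted p under 0.05 the counts of these 10 genes were also 0 higher and 1 lower, as they were by DESeq2 and by limma-voom with adjustment. With limma on log2(TPM + 1), TPM being a length-scaled unit, 0 rose and 2 fell, Gsdmd being added to Pycard. The median log2 change of the 10 genes was 0.0066, against 0.0074 over all genes tested, and the median size of the change was 0.041 against 0.10. The 4 libraries of each group did not overlap for 3 of the 10 genes, or 30% of them, against 30.6% of all genes tested; these 3 were Pycard, Casp1 and Gsdmd.

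**Figure D1:**
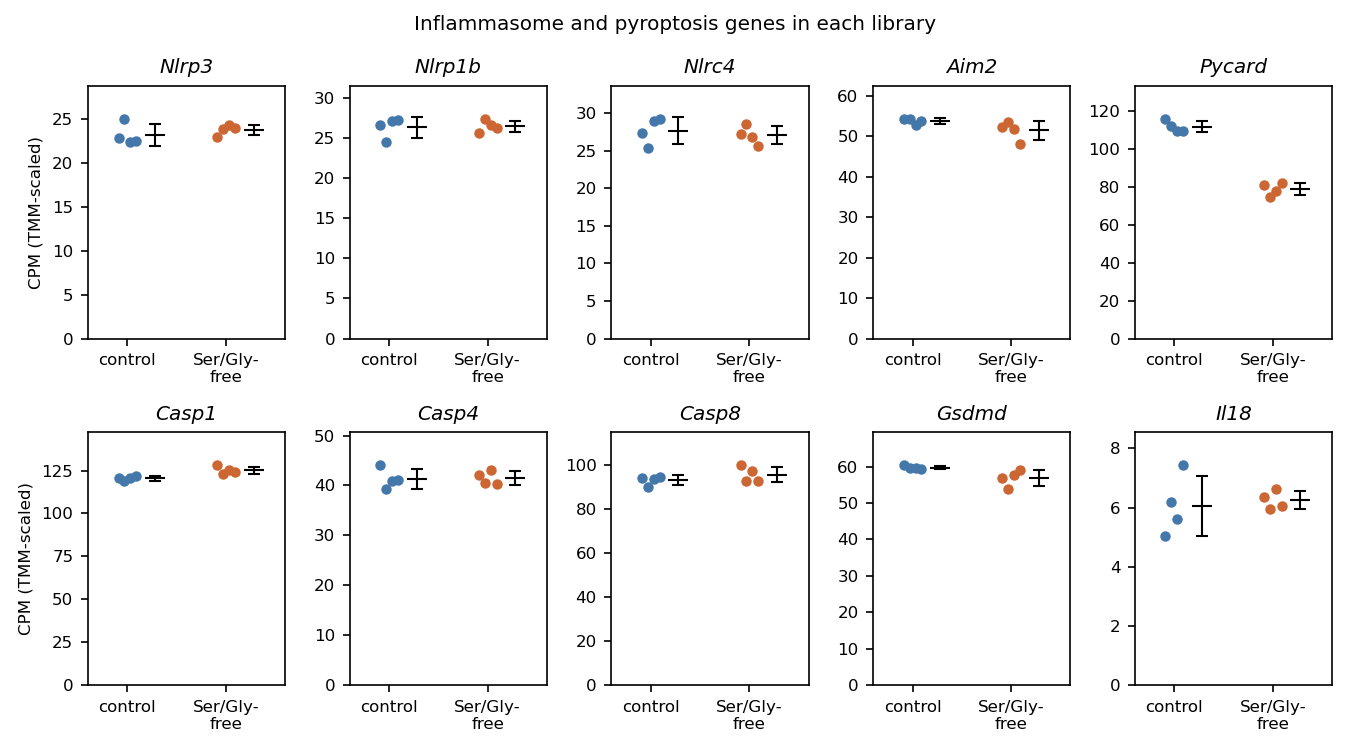
Each panel plots one gene's TMM-scaled CPM (vertical axis from 0) in the 4 control and 4 serine/glycine-free libraries (points), with the mean and SD as a bar at the side. Pycard is the panel in which the groups separate clearly, at 109 to 116 against 74.7 to 81.8 CPM.

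The libraries held 17565291 to 18201599 counts. A count of 0 allows up to 3 counts, equal to 0.164 to 0.171 CPM (library-scaled counts, TMM). The groups separated on the leading principal component (44.9% of variance), and on the next (11.7%) replicates 3 and 4 of the serine/glycine-free group lay at opposite ends. All 8 macrophage markers on the list used were present, and their summed level was 18919 to 19371 CPM in control and 18899 to 19174 CPM in serine/glycine-free libraries. Of these, 4 rose and 4 fell, so every one of them passed, against 33.2% of all genes. The similar sums hold opposite changes: Lyz2 rose from 9107 to 9994 CPM, while Adgre1 fell from 5763 to 4849 CPM. The 8 neutrophil markers summed to 0.772 to 1.17 CPM in control and 2.05 to 2.39 CPM in serine/glycine-free libraries. S100a8 made up most of that and was the only one tested, at 0.755 against 1.87 CPM. S100a9 was at 0.167 against 0.182 CPM, and Mpo went from 0.0280 to 0 CPM. Ly6g, Elane and Camp stood at 0 CPM in control and at 0.0421, 0.0139 and 0.0282 CPM without the amino acids. Mpo, Ly6g, Elane and Camp had 1 to 3 counts each over all 8 libraries. The 5 B-cell markers summed to 43.5 to 51.3 against 32.1 to 38.9 CPM, nearly all from Cd79b (46.3 against 35.0 CPM). T and NK cell markers reached at most 1.11 CPM in sum, dendritic cell markers 1.96, fibroblast markers 1.83, erythroid markers 0.224 and mast cell markers 0.111 CPM. The part of the neutrophil and B-cell transcripts in the results below was not tested. In bulk RNA, fewer cells expressing a gene and less RNA per cell cannot be told apart.

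Pycard (Entrez 66824) encodes ASC, the adaptor that joins a pyrin domain to a CARD and so links sensors to caspase-1. The gene lies on the minus strand of chromosome 7 at 127991373 to 127993867 (GRCm38.p6) and is annotated as protein-coding, with no other annotated gene overlapping it. Its level was 116, 112, 109 and 109 CPM in control replicates 1 to 4 and 81.0, 74.7, 77.5 and 81.8 CPM in serine/glycine-free replicates 1 to 4. Every serine/glycine-free library was below every control library, with a gap of 27.6 CPM between the nearest of them. The means were 112 ± 3.01 and 78.7 ± 3.28 CPM (SD, n = 4), a log2 change of -0.50 (SE 0.035, adjusted p = 5.8e-16 by edgeR's quasi-likelihood test). Pycard had the 116th smallest p-value of the 11700 genes, and 94.8% of genes changed by no more than it did. Its estimated counts, 1346 to 2070 per library, were whole in all 8 libraries. The change stayed between -0.53 and -0.48 in all 19 alternative fits, with the adjusted p at most 1.9e-09.

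The sequence upstream of the transcription start is shown for the adaptor that fell and for 3 genes of the pathway that did not pass. Casp1 and Casp4 stand next to each other in the genome, and Nlrp3 is the sensor whose transcript is known to need priming. Each stretch is the 250 bases before a RefSeq start site (GRCm38.p6), 5′ to 3′ on the gene's own strand, with matches to the searched motifs in capitals.
Pycard, chr7:127993868-127994117, minus strand: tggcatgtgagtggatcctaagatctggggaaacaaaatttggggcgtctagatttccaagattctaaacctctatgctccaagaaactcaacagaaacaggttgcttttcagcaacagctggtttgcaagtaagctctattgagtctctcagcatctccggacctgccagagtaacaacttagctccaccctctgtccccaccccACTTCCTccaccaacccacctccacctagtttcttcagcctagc
Casp1, chr9:5298267-5298516, plus strand: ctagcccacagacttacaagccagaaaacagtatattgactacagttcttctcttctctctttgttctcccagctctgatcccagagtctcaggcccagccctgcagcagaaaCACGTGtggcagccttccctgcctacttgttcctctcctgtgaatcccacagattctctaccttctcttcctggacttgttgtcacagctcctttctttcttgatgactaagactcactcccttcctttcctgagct
Casp4, chr9:5308599-5308848, plus strand: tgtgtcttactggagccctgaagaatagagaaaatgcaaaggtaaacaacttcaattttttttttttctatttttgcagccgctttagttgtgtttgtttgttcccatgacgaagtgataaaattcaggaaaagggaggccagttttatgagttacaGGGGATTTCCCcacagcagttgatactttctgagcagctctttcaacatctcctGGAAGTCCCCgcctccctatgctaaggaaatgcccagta
Nlrp3, chr11:59541319-59541568, plus strand: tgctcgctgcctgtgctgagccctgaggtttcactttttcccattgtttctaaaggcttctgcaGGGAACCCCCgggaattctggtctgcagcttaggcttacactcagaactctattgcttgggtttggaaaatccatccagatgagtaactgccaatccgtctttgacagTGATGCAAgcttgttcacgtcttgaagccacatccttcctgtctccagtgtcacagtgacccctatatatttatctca
Upstream sequence was found for 9 of the 10 genes. These stretches and those of 32817 RefSeq start sites were searched on both strands for 9 motifs, and the share of all start sites with a match is given for each. The interferon-stimulated response element was matched in 2.97%, the STAT element TTCNNNGAA in 7.01% and the NF-kappaB motif in 7.25%. The AP-1 motif TGANTCA was matched in 6.75%, the PU.1 core AGGAAGT in 7.69% and the E-box CACGTG in 6.02%. The Sp1 box GGGCGG was matched in 32.7%, the antioxidant response element TGACNNNGC in 10.2% and the amino acid response element core TGATGNAA in 3.45%. In Pycard the capitals mark a PU.1 core on the opposite strand, 44 to 38 bases before the start. PU.1 is a transcription factor of the macrophage lineage, and its core was also matched upstream of Aim2, Nlrc4 and 1 of the 2 Nlrp1b start sites. In Casp1 the capitals mark an E-box, and in Casp4 NF-kappaB motifs, of which 2 overlap. Nlrp3 held an NF-kappaB match and, 78 to 71 bases before the start, an amino acid response element core, the kind of element bound by ATF4. That core was also matched upstream of the other Nlrp1b start site, 54 to 47 bases before it, and the second start site of Nlrp3 had no match to any of the 9 motifs. These are matches of letters and were not measured as bound sites.

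The sensor transcripts did not pass the test. Nlrp3 (Entrez 216799, chromosome 11, 59541569 to 59566955), whose product senses potassium efflux and membrane damage, was at 23.2 ± 1.24 CPM in control and 23.8 ± 0.588 CPM in serine/glycine-free libraries (SD, n = 4). Its libraries ranged from 22.3 to 25.0 and from 22.9 to 24.3 CPM, and the groups overlapped. The log2 change was 0.036 (SE 0.055, adjusted p = 0.662 by edgeR), with an interval for the change of -5.06% to 10.7%. Nlrc4 (Entrez 268973, chromosome 17, 74426255 to 74459144), which acts with NAIP proteins on bacterial flagellin and secretion proteins, was at 27.7 ± 1.80 and 27.1 ± 1.21 CPM, with an interval of -9.37% to 5.41%. Nlrp1b (Entrez 637515, chromosome 11, 71152574 to 71242514), a sensor cleaved by anthrax lethal factor, was at 26.4 ± 1.29 and 26.5 ± 0.715 CPM, with an interval of -6.66% to 8.10%. In 7 of 8 libraries Nlrp1b had a fractional count, and its locus overlaps the pseudogene Nlrp1c-ps, which leaves its level uncertain.

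Aim2 (Entrez 383619, chromosome 1, 173349547 to 173466040), the sensor of cytosolic DNA, was at 54.2, 54.2, 52.8 and 53.6 CPM in control replicates 1 to 4. It was at 52.3, 53.6, 51.7 and 48.1 CPM in serine/glycine-free replicates 1 to 4. Replicates 1, 3 and 4 stood below the control range, replicate 4 the furthest. Replicate 2 lay within that range, so the groups overlapped. The log2 change was -0.062 (SE 0.041, adjusted p = 0.253 by edgeR; interval -9.53% to 1.40%). The annotated span of Aim2 overlaps Cadm3, and the strand setting of the counting is not given in the sources used here.

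Casp1 (Entrez 12362, chromosome 9, 5298517 to 5307281) encodes the protease of the canonical inflammasome. It was at 120, 119, 121 and 122 CPM in control replicates 1 to 4 and at 128, 123, 126 and 124 CPM in serine/glycine-free replicates 1 to 4. The groups did not overlap, but the distance was small. The means were 120 ± 1.25 and 125 ± 2.12 CPM (SD, n = 4), a log2 change of 0.056 (SE 0.030, adjusted p = 0.150 by edgeR), with an interval of -0.292% to 8.43%. Casp4 (Entrez 12363, chromosome 9, 5308849 to 5336791), which in mice encodes caspase-11, the receptor of cytosolic lipopolysaccharide, begins 1.6 kb beyond the end of Casp1. It was at 41.3 ± 1.99 and 41.5 ± 1.32 CPM, with overlapping groups and an interval of -5.66% to 7.0%. Casp8 (Entrez 12370, chromosome 1, 58795233 to 58847503), the initiator of death-receptor apoptosis that can also cleave gasdermin D, was at 93.2 ± 2.21 and 95.7 ± 3.49 CPM, with overlapping groups and an interval of -2.03% to 7.74%.

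Gsdmd (Entrez 69146, chromosome 15, 75862144 to 75867408) encodes gasdermin D, the pore of pyroptosis. Its level was 60.3, 59.7, 59.7 and 59.2 CPM in control and 56.9, 53.7, 57.7 and 59.1 CPM in serine/glycine-free replicates 1 to 4. The groups did not overlap, by a margin of 0.193 CPM, and control libraries were the more tightly grouped. The log2 change was -0.073 (SE 0.039, adjusted p = 0.152 by edgeR; interval -9.95% to 0.401%). On the deposited TPM, with limma on log2(TPM + 1), it was -0.10 (adjusted p = 0.0232), and after removing the length trend of every library it was -0.099 (adjusted p = 0.0309 by edgeR), so its call depends on the scale. Over all 19 alternatives the adjusted p of Gsdmd ranged from 0.0232 to 0.417.

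Il18 (Entrez 16173, chromosome 9, 50554700 to 50581841), the cytokine that caspase-1 matures, had the fewest reads of the 10 genes, at 90 to 132 counts per library. It was at 5.03, 6.18, 5.61 and 7.43 CPM in control and 6.36, 5.94, 6.63 and 6.06 CPM in serine/glycine-free replicates 1 to 4. The serine/glycine-free values lay inside the control range. The means were 6.06 ± 1.02 and 6.25 ± 0.310 CPM (SD, n = 4), with an interval of the change of -11.2% to 19.7% (adjusted p = 0.795 by edgeR). A fall of the size seen for Pycard lies outside that interval. The annotated span of Il18 overlaps Bco2 and Tex12.

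**Figure D2:**
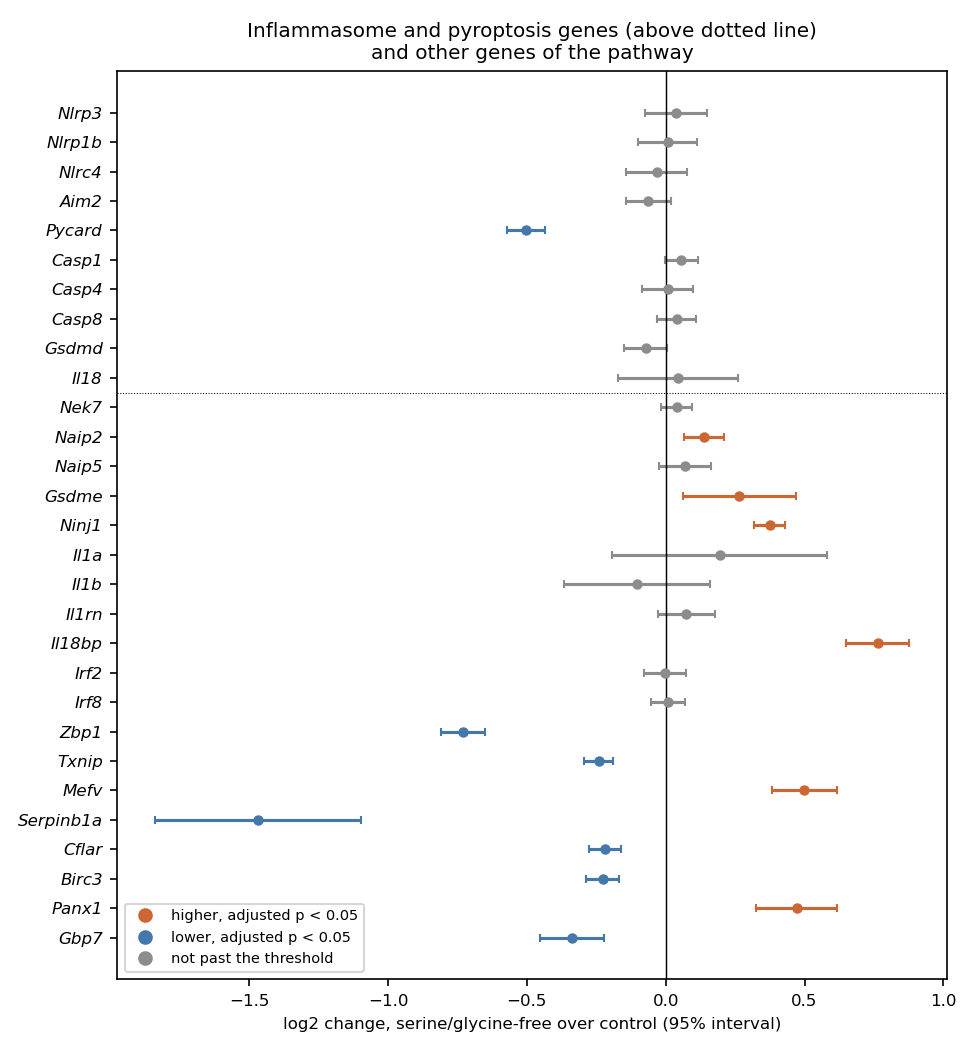
Points are log2 changes of serine/glycine-free over control from the edgeR fit, with 95% intervals as bars, for the 10 genes (above the dotted line) and for other named genes of the pathway. Pycard stands at -0.50 while the other 9 intervals of the upper block include 0; Il18bp is highest at 0.76 and Serpinb1a lowest at -1.47.

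Levels can be set side by side between genes only per length, here as deposited TPM, a length-scaled unit. In control cells the order was Casp1 (160 ± 2.05 TPM, SD, n = 4), Pycard (102 ± 2.05), Casp8 (71.8 ± 1.34), Gsdmd (67.0 ± 0.519), Casp4 (58.9 ± 2.19) and Aim2 (34.8 ± 0.739). These 6 did not overlap with their neighbours in the order. Nlrc4 (13.3 ± 0.840 TPM), Il18 (11.5 ± 1.5), Nlrp3 (11.0 ± 0.647) and Nlrp1b (10.9 ± 0.563) followed, and each overlapped with the next. Without serine and glycine Casp1 was highest (163 ± 4.04 TPM), and Pycard (70.4 ± 1.87 TPM) followed Casp8, within the range of that gene (71.8 ± 3.34 TPM) and above Gsdmd (62.3 ± 1.41 TPM). The order of the other genes was as in control.

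**Figure D3:**
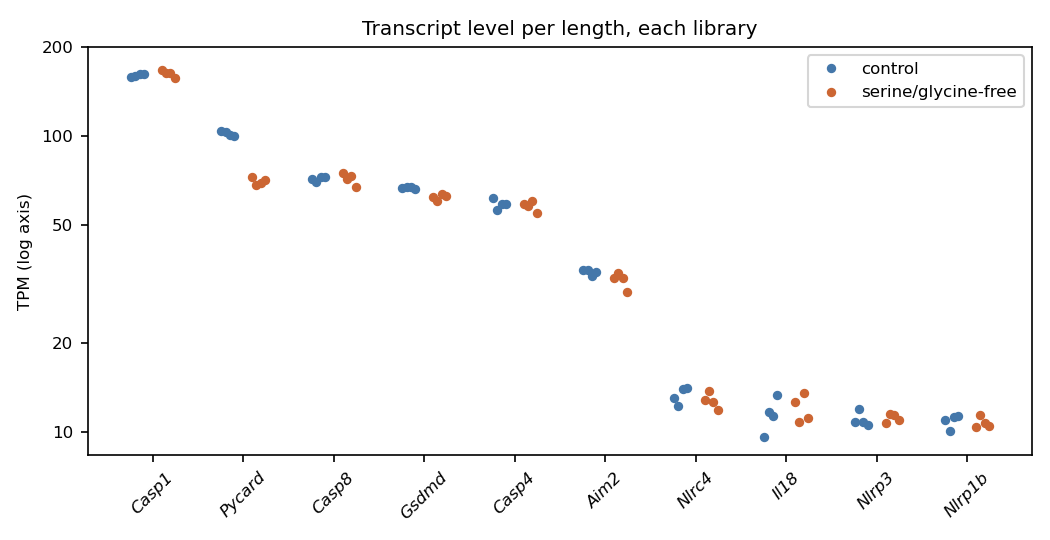
Deposited TPM (log axis) of the 10 genes in each control and serine/glycine-free library, ordered by the control mean. Pycard moves from 99.8 to 104 TPM in control to 68.4 to 72.6 TPM, the range of Casp8; the 4 genes at the right lie between 9.63 and 14.0 TPM.

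Ratios within a library do not depend on the scaling between libraries. The pairs of genes were chosen after their values were seen and are given as a description. The ratio of Pycard to Casp1 TPM was 0.661, 0.647, 0.622 and 0.617 in control replicates 1 to 4 and 0.435, 0.417, 0.424 and 0.453 in serine/glycine-free replicates 1 to 4. Adaptor transcript per caspase-1 transcript was thus lower in every serine/glycine-free library. Against Gsdmd, Pycard went from 1.52 ± 0.0317 to 1.13 ± 0.0285, and against Nlrp3 from 9.26 ± 0.472 to 6.33 ± 0.360 (SD, n = 4). For IL-18 and its soluble inhibitor, the ratio of Il18bp to Il18 TPM went from 2.57 ± 0.517 to 4.03 ± 0.341. Control replicate 1 was the highest of its group at 3.34, below the lowest serine/glycine-free library at 3.59.

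**Figure D4:**
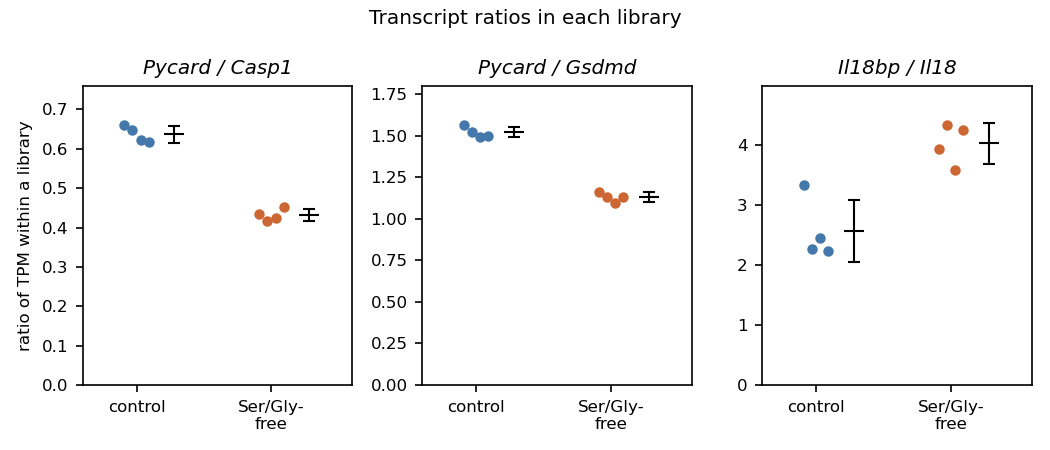
TPM ratios in each library (vertical axis from 0; points are libraries, bars the mean and SD). Pycard to Casp1 lies at 0.617 to 0.661 in control and 0.417 to 0.453 without serine and glycine, and Il18bp to Il18 at 2.24 to 3.34 and 3.59 to 4.33.

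Other genes of the pathway were described from 5 further lists with 64 genes in the table, of which 56 were tested. Of these, 10 rose, 14 fell and 32 did not pass, so that 42.9% passed against 33.2% of all genes, with a median log2 change of -0.0063.

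Among 17 tested sensors and sensor partners, 5 rose, 6 fell and 6 did not pass, so that 64.7% passed against 33.2% of all genes. DESeq2 called 3 higher and 6 lower, and limma on log2(TPM + 1) called 2 higher and 6 lower. Mefv, which encodes pyrin, the sensor of inactivated RhoA GTPases, rose from 17.4 ± 1.02 to 24.7 ± 0.851 CPM (SD, n = 4), by 0.50 on the log2 scale (adjusted p = 2.2e-09 by edgeR). Panx1, a channel that releases ATP, rose from 11.6 ± 0.529 to 16.1 ± 1.35 CPM (0.47). Naip2, the receptor that brings bacterial rod protein to NLRC4, rose from 93.4 ± 2.80 to 103 ± 5.93 CPM (0.14, adjusted p = 0.0026 by edgeR), but with limma on log2(TPM + 1) its change of 0.10 had an adjusted p of 0.140. The groups of Naip2 overlapped. The flagellin receptor gene Naip5 stood at 0.070 (adjusted p = 0.260). NAIP genes are close paralogs, with counts not whole in 6 of 8 libraries for Naip2 and in 8 of 8 for Naip5, so their levels are uncertain to that extent. Txnip, a thioredoxin-binding protein reported to bind NLRP3, fell from 362 ± 4.10 to 306 ± 7.54 CPM (-0.24, adjusted p = 1.7e-10 by edgeR). Nek7, the kinase that bridges NLRP3 subunits, was at 202 ± 4.85 and 207 ± 5.29 CPM (0.039, adjusted p = 0.301), and passed only with the length trend removed (0.067, adjusted p = 0.0372).

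Among 6 tested genes of pore formation and membrane repair, 2 rose and 0 fell (0 by an unadjusted p under 0.05, by DESeq2 and by limma-voom). These made up 33.3% of the tested list, against 33.2% of all genes. Ninj1, which ruptures the membrane of dying cells after pores have formed, rose from 177 ± 3.25 to 230 ± 6.29 CPM, with all 4 libraries above every control (SD, n = 4; 0.37 on the log2 scale, adjusted p = 7.6e-15 by edgeR). Gsdme, another gasdermin, rose from 5.58 ± 0.562 to 6.71 ± 0.312 CPM (0.26, adjusted p = 0.0388). That call was lost when any of 5 libraries was left out (serine/glycine-free replicates 2, 3 and 4 and control replicates 3 and 4), with an adjusted p up to 0.140. It was also lost by DESeq2 (adjusted p = 0.135), by edgeR with no filter on low counts (0.0688) and by limma on log2(TPM + 0.1) (0.0522), so that DESeq2 called 1 gene of this list higher.

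Among 14 genes of neighbouring death pathways, 0 rose (0 by an unadjusted p under 0.05, by DESeq2 and by limma-voom) and 4 fell. Thus 28.6% passed, against 33.2% of all genes. Zbp1, the sensor of Z-form nucleic acids that recruits RIPK3 and caspase-8, fell from 75.6 to 45.6 CPM (-0.73). Cflar, the caspase-8 inhibitor c-FLIP, fell from 207 ± 6.31 to 178 ± 2.60 CPM (SD, n = 4; -0.22, adjusted p = 2.7e-08 by edgeR), with counts not whole in 3 of 8 libraries. Birc3, the ubiquitin ligase cIAP2, fell from 144 ± 3.23 to 123 ± 2.20 CPM (-0.23). The fourth was Bid.

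Among 9 tested genes of the IL-1 family and its receptors, 3 rose and 0 fell (1 by an unadjusted p under 0.05, 0 by DESeq2 and by limma-voom). In the main fit 33.3% of them passed, against 33.2% of all genes. Il18bp, the secreted protein that binds and neutralizes IL-18, was at 22.1, 17.9, 18.7 and 20.1 CPM in control and 34.4, 31.7, 33.7 and 33.9 CPM in serine/glycine-free replicates 1 to 4. The groups lay far apart. The log2 change was 0.76 (SE 0.057, adjusted p = 6.7e-15 by edgeR), a 1.70-fold rise. The cytokine genes themselves did not pass: Il1b was at 4.02 ± 0.362 and 3.74 ± 0.591 CPM and Il1a at 1.52 ± 0.245 and 1.75 ± 0.238 CPM (SD, n = 4). With 58 to 80 counts of Il1b and 23 to 36 of Il1a per library, their intervals ran from -22.5% to 11.6% and from -12.5% to 49.8%. Il1rn, the receptor antagonist, was at 29.7 ± 1.03 and 31.2 ± 1.76 CPM (adjusted p = 0.283 by edgeR).

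Among 10 tested regulators, 0 rose (0 by an unadjusted p under 0.05, by DESeq2 and by limma-voom) and 4 fell. The share that passed was 40%, against 33.2% of all genes. Gbp7, an interferon-induced guanylate-binding protein, fell from 30.1 ± 2.21 to 23.9 ± 1.61 CPM (SD, n = 4; -0.34, adjusted p = 7.1e-06 by edgeR). Serpinb1a, an inhibitor of neutrophil serine proteases that also restrains inflammatory caspases, fell from 2.95 ± 0.326 to 1.06 ± 0.175 CPM (-1.47, adjusted p = 1.2e-08), on 15 to 60 counts per library. Irf2, a transcription factor needed for Gsdmd expression, was at 62.6 ± 1.31 and 62.5 ± 1.43 CPM, and Irf8, which drives Naip expression, at 150 ± 4.29 and 151 ± 4.54 CPM. Neither passed (adjusted p = 0.969 and 0.849 by edgeR), and their intervals were -5.27% to 5.17% and -3.50% to 5.0%.

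The genes within 200 kb of each of the 10 were compared in the same fit. Of 65 such genes tested, 16 passed (24.6%, against 33.2% of all genes). Near Pycard, 13 genes were tested, of which 3 rose, 2 fell and 8 did not pass, a share of 38.5%. The integrin gene Itgam, 68.8 kb away, fell by 0.61 on the log2 scale, from 1695 to 1110 CPM. The integrin gene Itgax, 135.7 kb away, rose (0.68) at a far lower level, from 4.23 to 6.77 CPM. Hsd3b7 (0.25) and Vkorc1 (0.14) also rose, and Setd1a (-0.12) fell. Near Aim2, all 3 tested genes fell: Ifi206 (-0.41), Ifi213 (-0.45) and Ifi209 (-0.27), interferon-inducible genes of the same PYHIN family as Aim2, which itself stood at -0.062. Their counts were not whole in 6, 2 and 8 of 8 libraries, so reads shared between these paralogs make their levels uncertain. Near Casp8, Cflar at 36.3 kb was the 1 of 4 tested genes that passed. These 3 loci are described and plotted because Pycard fell and because Aim2 and Casp8 have relatives or a regulator of their own beside them, a choice made after the values were seen. Of the others, 3 of 6 genes passed near Nlrc4 (2 higher, 1 lower), 2 of 7 near Nlrp1b and 2 of 12 near Il18, all 4 of the latter higher. Near Gsdmd 0 of 13 passed, near Nlrp3 0 of 5, and Casp1 and Casp4 had only each other. Those counts of 0 were also 0 at an unadjusted p under 0.05 in edgeR, by DESeq2 and by limma-voom. The other counts depended on the tool. DESeq2 called 11 of the 65 genes, with 0 near Nlrp1b, 1 near Il18, 2 near Nlrc4 and 4 near Pycard. With limma-voom 15 were called, of which 1 was near Nlrp1b. Near Aim2 and Casp8 the counts were the same by both.

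**Figure D5:**
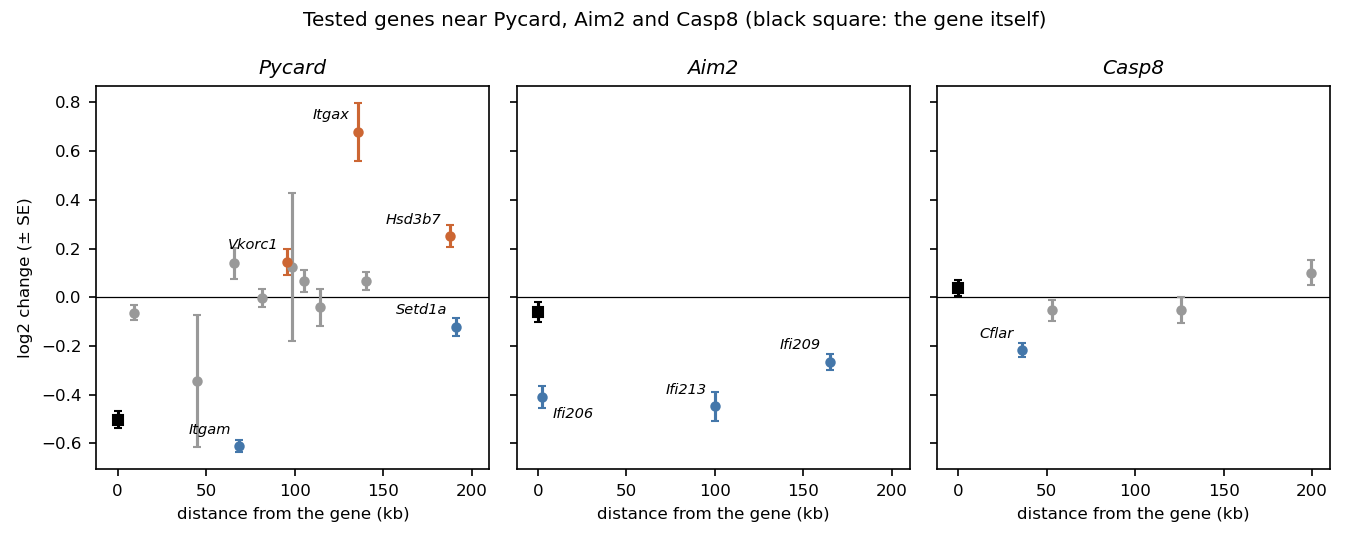
Log2 change with SE of tested genes (vertical axis) against their distance in kb from Pycard, Aim2 and Casp8 (black squares, at 0 kb); coloured and named points passed an adjusted p of 0.05. Beside Pycard at -0.50, Itgam lies at -0.61 and Itgax at 0.68, and the 3 neighbours of Aim2 lie between -0.45 and -0.27.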

How the data were processed

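Poly(A) RNA was sequenced from 8 libraries (oligo-dT capture, per the labels). The submitters' processing notes list BWA, Bowtie2, RSEM and GRCm38.p6, without versions. The authors deposited estimated counts, FPKM and TPM for each library. The deposited TPM were used for levels, ratios and alternative tests, and the deposited FPKM were not used. Between 8.06% and 8.47% of the deposited estimated counts per library were not whole (tolerance 1e-06), and counts were rounded.

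Genes passing edgeR's filter (minimum count 10, minimum total 15) numbered 11700. They were tested with edgeR 4.0.16 in R 4.3.3 (TMM scaling, robust quasi-likelihood F test, 6 residual degrees of freedom), with Benjamini-Hochberg adjustment over all of them and a threshold of 0.05. SE and 95% intervals derive from the F statistic. Gene length for the trend fit came from the ratio of counts to TPM. Alternatives were other scalings and filters, a replicate block, left-out libraries, DESeq2 1.42.0, limma 3.58.1 (voom, and log2 of TPM plus 1 or 0.1), a stricter threshold and removal of length trends.

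The genes and lists were chosen with earlier results of these data known. Named pathway genes were 13 set by rule plus the 8 others with the smallest adjusted p; genes named outside it were chosen after their values were seen. Some of these genes are not reported here. The floors from counts of 0 cover counting error only, while the intervals of changes include the spread between libraries. Gene positions and upstream sequences are from RefSeq on GRCm38.p6.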

Additional observations from a re-analysis of the deposited data

Results flagged for a closer look

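In the serine/glycine-free group, replicate 4 had 199 CPM of Nek7, set apart from the other 3 libraries, of which the nearest had 209 CPM. This gap was 0.913 of the group's range, above Dixon's 95% limit for 4 samples. It was the 1 case among 62 groups of values screened, where chance alone flags about 5% of groups.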

How the results depend on the processing

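Among the 10 genes, the count that fell was 1 in all alternatives except 3, where it was 2, with Gsdmd added to Pycard: limma on log2(TPM + 1), limma on log2(TPM + 0.1), and removal of length trends. Over all genes tested, the median log2 change was 0.0074 in the main fit and 0.0049 with length trends removed. It was lower on the TPM scales, at -0.021 on log2(TPM + 1) and -0.024 on log2(TPM + 0.1). The cause of the added Gsdmd call was not tested. The count of pathway genes that rose was 10 in the main fit, 6 on log2(TPM + 1) and 5 on log2(TPM + 0.1). Over 586 values of single named genes under alternatives, 25 changed sign, none larger than 0.036 on the log2 scale nor with an adjusted p below 0.609. Irf2 was at 0.0064 with library size alone and 0.000021 with a mean of at least 5 CPM. Without a filter, Nlrp1b was at -0.0022 and Casp4 at -0.0019. On log2(TPM + 1), Nlrp1b was at -0.020, Casp4 at -0.022, Casp8 at -0.000078 and Irf8 at -0.0208. On log2(TPM + 0.1), these were -0.022, -0.022, -0.000092 and -0.0210. With length trends removed, Casp4 was at -0.033 and Il18 at -0.014. With each library left out in turn, Nlrp1b ranged from -0.028 to 0.022, Casp4 from -0.018 to 0.038, Il18 from -0.036 to 0.155, Irf2 from -0.013 to 0.0094 and Irf8 from -0.0083 to 0.028. Serpinb1a, Il1a and Il1b had no value with a mean of at least 5 CPM.

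Replicate numbers are shared between the groups, but same-numbered libraries did not deviate together (correlations -0.048, 0.061, 0.051 and -0.094). With the replicate block, 1771 genes rose and 1884 fell over the table, 1 of the 10 genes fell, and 10 pathway genes rose and 14 fell. Counts per library were 90 to 132 for Il18, 58 to 80 for Il1b, 23 to 36 for Il1a and 15 to 60 for Serpinb1a, which limits their precision.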

Other observations

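Some list genes outside the naming rule were chosen after their values were seen. Pstpip1, which binds pyrin, fell from 130 ± 3.74 to 121 ± 2.85 CPM (SD, n = 4), by -0.11 on the log2 scale (adjusted p = 0.0041 by edgeR), while the pyrin gene Mefv rose. Dpp8 (-0.11, adjusted p = 0.0056) and Dpp9 (-0.15, adjusted p = 0.0012), peptidases that restrain NLRP1 sensors, both fell, with overlapping groups for Dpp8. The ATP-gated channel gene P2rx7 fell from 80.2 ± 2.08 to 71.8 ± 4.14 CPM (-0.16), also with overlapping groups. Sigirr, an inhibitory receptor of the IL-1 family, rose from 3.94 ± 0.776 to 5.45 ± 0.575 CPM (0.47, adjusted p = 0.0027), with overlapping groups. Il18rap, the accessory chain of the IL-18 receptor, rose from 28.6 ± 1.36 to 33.1 ± 2.47 CPM (0.21, adjusted p = 0.0015 by edgeR but 0.0762 by limma on log2(TPM + 1)), while Il18r1, the binding chain, had 0.195 and 0.181 CPM and was not tested. Naip1 rose from 0.781 ± 0.162 to 1.33 ± 0.344 CPM (0.76, adjusted p = 0.0154 by edgeR), at a low level and with counts not whole in 6 of 8 libraries. Its adjusted p was 0.0685 by DESeq2, 0.0200 by limma-voom and 0.0918 by limma on log2(TPM + 1).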
